A study of Homo sapiens with 16 samples.

Results

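The vascular endothelial growth factor (VEGF) ligands and receptors were followed in a human neuroblastoma line, SH-SY5Y, after it had been driven for 15 days toward dopamine-like neurons. The family was given as 7 gene symbols: the ligands VEGFA, VEGFB and VEGFC, the receptor tyrosine kinases FLT1 and KDR, and the neuropilin co-receptors NRP1 and NRP2. Of these, 6 had a row among the 19898 genes of the table, and VEGFC is not analysed here. All 6 passed the filter on low values, which 16984 genes passed. The family was selected on measured values, since it was proposed with normalised read counts and log2 changes of these libraries known. High and shifting values of VEGFA and FLT1 were among them, so these 2 genes are described with no test. Whether the values of VEGFB, KDR, NRP1 and NRP2 played a part in the choice is not recorded, and their p-values are to be read with that in mind.

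There were 4 groups of 4 libraries of poly-A selected RNA. MPP-treated 3D cells grew in a silk-collagen scaffold and received 1 mM of 1-methyl-4-phenylpyridinium (MPP), an inhibitor of respiratory complex I, for the last 48 h. MPP-treated 2D cells grew on flat dishes and received the same dose over the same time. Untreated 3D and untreated 2D cells were their counterparts with no toxin. All groups come from 1 cell line and share the differentiation protocol. The comparison of 2D and 3D asks what the growth environment does to a cell model of Parkinson's disease. Accutase was used to lift the 2D cells off the dish and scaffolds were frozen whole, so culture and handling cannot be told apart. Nothing in the labels ties the 4 libraries of a group to separate cultures, and p-values thus measure the spread between these libraries, which may be technical.

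VEGF ligands are secreted dimers that are best known for making blood vessels grow. VEGFA binds both FLT1 (VEGF receptor 1) and KDR (VEGF receptor 2). KDR carries most of the growth and survival signal, while FLT1 binds VEGFA tightly, signals weakly and also exists as a secreted splice form that acts as a decoy. VEGFB and placental growth factor (PGF) bind FLT1 but not KDR, and VEGFC acts mainly on FLT4 (VEGF receptor 3). The neuropilins have no kinase and serve as co-receptors for VEGF ligands and for class 3 semaphorins, which guide axons. VEGFA transcription is a classic target of hypoxia-inducible factors and is also raised by the ATF4 arm of the stress response.

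Recovered reads came to 36554574 to 38414859 per library in MPP-treated 3D, 30399672 to 41813620 in MPP-treated 2D, 24589435 to 34658873 in untreated 3D and 34643854 to 46359070 in untreated 2D. Across genes, which are not independent replicates, the correlation within groups was r = 0.968 to 0.985. Untreated 3D replicate 3 stood apart from its group on the fourth principal component, at 56.4 against -29.6 to 4.32. Of 14 sympathoadrenal neuroblastoma markers 13 had a row, and none of these was at 0 in any group. Of 14 endothelial markers 12 had a row. The defining endothelial genes PECAM1, CDH5 and ERG, 3 of these 12, had means of at most 5.92 in any group, and PECAM1 had 0 reads in both untreated groups. Of the 12, 6 averaged under 10 in MPP-treated 3D, MPP-treated 2D and untreated 2D, and 7 in untreated 3D. The rest were higher, such as ENG at 685 in MPP-treated 3D and 967 in MPP-treated 2D, and ESAM at 92.6 in untreated 2D. VWF, the clotting factor of endothelium, was not near 0 and averaged 53.6 in MPP-treated 3D, 82.1 in MPP-treated 2D, 82.5 in untreated 3D and 29.7 in untreated 2D. The summed endothelial list stood at 4711 to 5673 in MPP-treated 3D, 3515 to 3930 in MPP-treated 2D, 7120 to 9787 in untreated 3D and 2924 to 3214 in untreated 2D. Most of that sum was EGFL7, a secreted protein that is not confined to endothelium. It averaged 4176, 2531, 7229 and 2115 in the same order of groups. Values below are normalised read counts, which are counts divided by 1 size factor per library, with SD over n = 4. Log2 changes come from limma on log2(value + 1), which understates the change of low genes, and a gene was called at an adjusted p under 0.05 over all genes tested.

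The upstream sequences of the receptor kinases are shown because FLT1 and KDR share the ligand VEGFA but had unlike levels across the groups. The window that RefSeq places before each gene start (GRCh38.p14, minus strand) was searched on both strands for ACGTG, the core letters of the hypoxia-inducible factor site, for its common variant GCGTG, and for TGACGTCA (the cAMP response element) and the letters TATAAA (the TATA box). Capitals mark the matches. The FLT1 stretch runs from 250 to 18 bases before the start at chr13:28495146-28495378, and the 17 bases nearest the start are left out because they lie inside the gene as GENCODE draws it. The KDR stretch covers the 250 bases before the start at chr4:55125596-55125845.
FLT1: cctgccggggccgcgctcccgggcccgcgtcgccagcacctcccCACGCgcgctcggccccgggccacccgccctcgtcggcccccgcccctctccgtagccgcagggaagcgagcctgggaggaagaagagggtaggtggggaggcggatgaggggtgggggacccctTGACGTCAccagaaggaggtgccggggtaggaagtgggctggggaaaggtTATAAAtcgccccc
KDR: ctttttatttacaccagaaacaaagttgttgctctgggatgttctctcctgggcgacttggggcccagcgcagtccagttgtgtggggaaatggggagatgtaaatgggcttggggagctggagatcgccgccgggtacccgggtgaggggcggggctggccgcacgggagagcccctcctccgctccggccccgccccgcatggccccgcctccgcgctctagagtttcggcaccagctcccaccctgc

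FLT1 held GCGTG on the other strand (positions -206 to -202), TGACGTCA (-81 to -74) and TATAAA (-31 to -26). No searched motif was found in the KDR window. Of 35116 RefSeq windows of the same length, 43.2% held at least 1 of the hypoxia-inducible factor cores, 1.65% held TGACGTCA and 10.7% held TATAAA. The core ACGTG alone was in 18.5% of the windows and GCGTG in 32.2%, and TGACGTCA overlaps neither. VEGFB and NRP2 also matched a window. VEGFB held GCGTG at -61 to -57 and NRP2 held none of the motifs. All 250 bases of the NRP2 window and the 46 bases nearest the start in the VEGFB window lie inside the gene as GENCODE draws it, and neither window is printed. The 4 windows were rich in G and C, with 82.8% in VEGFB, 73.2% in FLT1, 65.2% in KDR and 70.0% in NRP2, against a median of 58.0% over all windows. A match is a description of the letters and not evidence of binding.

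VEGFA (Entrez gene 7422, chr6:43770184-43786487, plus strand, GRCh38) had the highest mean read count of the members in each group, before any scaling by length. Its peak was in the untreated scaffold. The 4 MPP-treated 3D libraries held 7513, 7671, 6222 and 6563. Those of MPP-treated 2D held 8425, 8975, 8127 and 7192. The untreated 3D libraries held 46888, 35444, 35928 and 35993, and the untreated 2D libraries 4315, 4880, 4912 and 4784. Every untreated 3D library was thus above every library of the other groups, and every untreated 2D library was below all others. The groups averaged 6992 ± 709 in MPP-treated 3D, 8180 ± 746 in MPP-treated 2D, 38563 ± 5555 in untreated 3D and 4723 ± 277 in untreated 2D. In these bulk libraries, fewer cells of a type and less RNA per cell cannot be told apart.

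Without toxin, VEGFA was 8.17-fold higher in 3D than in 2D (log2 3.02, SE 0.091). Under MPP this gap was gone, and the ranges of 3D and 2D overlapped (log2 -0.23, SE 0.091). MPP went with opposite changes in the 2 cultures. On the dish, MPP-treated cells were 1.73-fold above untreated cells with no overlap (log2 0.79). In the scaffold, they were at 0.181 times the untreated level with no overlap (log2 -2.46). Subtracting the 2D from the 3D effect of MPP gave -3.25 (SE 0.13). Untreated 3D replicate 1 was the highest library, and without it the untreated 3D mean was 35788 ± 300.1 (SD, n = 3), the untreated culture contrast 2.92, the MPP contrast in 3D -2.36 and the difference -3.15. Without replicate 3, which stood apart on the principal components, these 3 log2 values were 3.05, -2.49 and -3.28. VWF lay on the same sides of 0 as VEGFA in all 5 comparisons. Its log2 values were 1.46 in untreated 3D against 2D (limma, adjusted p = 3.26e-04), -0.64 under MPP (adjusted p = 0.0921), 1.502 with MPP in 2D (adjusted p = 4.06e-04), -0.59 with MPP in 3D (adjusted p = 0.126) and -2.09 for the difference of the MPP effects (adjusted p = 0.00106). VWF is 1 of 7 tested endothelial markers. With TMM scaling the median log2 of these 7 was -0.17, 0.45, 0.25, -0.34 and 0.15 in the same order. That median lay on the other side of 0 from VEGFA in both comparisons of 3D with 2D and for the difference. The part of VWF and of the other endothelial markers in the VEGFA values was not tested.

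VEGFB (Entrez gene 7423, chr11:64234538-64238793, plus strand), a ligand that binds FLT1 but not KDR, was nearly level. Its libraries ran from 4815 to 5304 in MPP-treated 3D, from 4390 to 5137 in MPP-treated 2D, from 4096 to 5108 in untreated 3D and from 4186 to 4718 in untreated 2D. Groups next to each other in the order of means overlapped, but every MPP-treated 3D library lay above every untreated 2D library. The means were 5071 ± 268, 4892 ± 339, 4714 ± 434 and 4493 ± 223 in the same order. No contrast was called by limma. The log2 changes were 0.066 for 3D against 2D untreated (adjusted p = 0.490), 0.053 for 3D against 2D with MPP (adjusted p = 0.605), 0.12 for MPP in 2D (adjusted p = 0.213) and 0.11 for MPP in 3D (adjusted p = 0.268), each with SE 0.073. Between 3D and 2D its MPP effects differed by -0.013 (limma, SE 0.10, adjusted p = 0.955). With equal library totals in place of the deposited size factors, VEGFB was called with MPP in 2D (limma, log2 0.23, adjusted p = 0.0245) and in 3D (0.20, adjusted p = 0.0404), while the median of all genes moved to 0.12 and 0.097.

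**Figure D1:**
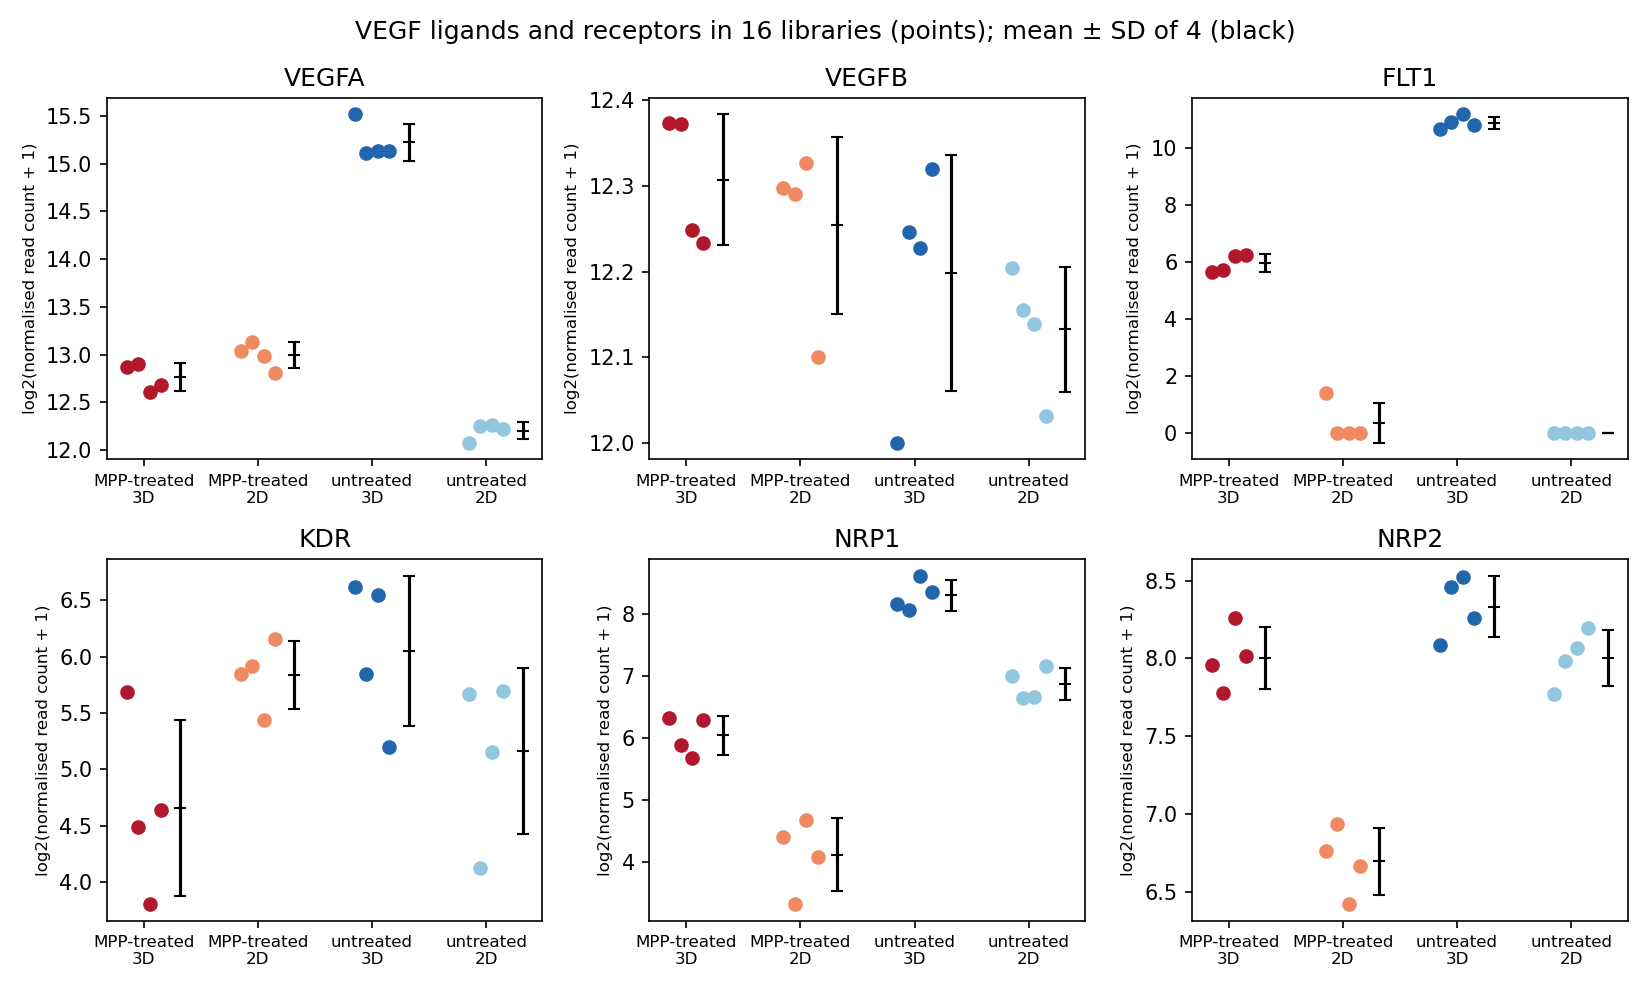
Normalised read counts on the log2(value + 1) scale (vertical axis, a separate range for each gene) of the 6 members in the 4 groups (horizontal axis), with points for libraries and black bars for the mean ± SD of 4. VEGFA and FLT1 stand highest in untreated 3D, FLT1 is at or next to 0 in both 2D groups, VEGFB spans less than 1 log2 unit, and NRP1 and NRP2 are lowest in MPP-treated 2D.

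Per kilobase of the longest coding transcript, VEGFA stood at 1978 ± 201 in MPP-treated 3D, 2314 ± 211 in MPP-treated 2D, 10909 ± 1571 in untreated 3D and 1336 ± 78.4 in untreated 2D. VEGFB stood at 3674 ± 194, 3545 ± 246, 3416 ± 314 and 3256 ± 162 on the same scale and in the same order. VEGFA thus made up 33.4%, 37.7%, 74.6% and 27.1% of the length-scaled ligand mRNA of VEGFA, VEGFB, PGF and VEGFD, and it led in untreated 3D alone. That lead depends on the length used, because VEGFA has 26 coding transcripts of 336 to 3535 bases. With all annotated exons as the length, VEGFA per VEGFB in untreated 3D was 0.891, and VEGFB led in all 4 groups. Ratios of reads need no length between groups. The median number of VEGFA reads per VEGFB read was 1.39 in MPP-treated 3D, 1.66 in MPP-treated 2D, 7.40 in untreated 3D and 1.08 in untreated 2D.

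The remaining ligands were minor. PGF, the placental ligand of FLT1, averaged 494 ± 65.0 in MPP-treated 3D, 531 ± 89.0 in MPP-treated 2D, 465 ± 44.6 in untreated 3D and 659 ± 52.3 in untreated 2D. Untreated 3D was below untreated 2D with no overlap (limma, log2 -0.50, SE 0.13, adjusted p = 0.00226), the opposite side from VEGFA in the same comparison. With MPP in 2D the PGF change was -0.32 (limma, adjusted p = 0.0514), and 10 of its alternatives called it at adjusted p of 0.0131 to 0.0488. VEGFD, a ligand of FLT4 and KDR, did not pass the filter and averaged 2.31, 4.91, 5.93 and 5.50 in the 4 groups in the same order.

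FLT1 (Entrez gene 2321, chr13:28300344-28495145, minus strand) was read almost only in the scaffold. The MPP-treated 3D libraries held 48.8, 51.8, 73.2 and 75.5. In MPP-treated 2D replicate 1 held 1.62 and the other 3 libraries were at 0. The untreated 3D libraries held 1631, 1927, 2323 and 1779, and all 4 untreated 2D libraries were at 0. No 3D library overlapped any 2D library. Reads came to 273 in the MPP-treated 3D group, 2 in MPP-treated 2D and 6034 in untreated 3D. Untreated 2D had 0 reads, which allows a mean of up to 0.689 if reads are independent.

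Against that limit of 3 reads over the group, FLT1 was at least 2751-fold higher in untreated 3D than in untreated 2D. Under MPP the ratio of 3D to 2D was 136, with an exact 95% counting interval of 37.4 to 1131. Such limits and intervals cover counting error only and take reads as independent. KDR had an even number of recovered reads in every library, so reads may have been counted in pairs from the same fragment. The interval would then be too narrow and the lower limit of 2751 too high. Within 3D, FLT1 averaged 62.3 ± 14.0 in MPP-treated cells and 1915 ± 297 in untreated cells, 0.0325 times as much, with no overlap (log2 -4.93, SE 0.39). Over the alternatives this log2 value lay between -5.03 and -4.83, and without untreated 3D replicate 3 it was -4.84. Both 2D groups were at or under the limit, and no fold is given between them. The counts are per gene and do not part the secreted splice form from the membrane receptor. EGFL7, the endothelial list gene that carried most of that list's sum, was likewise highest in untreated 3D, and VWF stood about as high in MPP-treated 2D as there. PECAM1 was at 0 in untreated 3D. The part of these markers in the FLT1 values was not tested.

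KDR (Entrez gene 3791, chr4:55078259-55125595, minus strand), the main signalling receptor, was read at low level in every library. The MPP-treated 3D libraries held 50.6, 21.4, 13.0 and 23.9. Those of MPP-treated 2D held 56.5, 59.3, 42.3 and 70.4. The untreated 3D libraries held 97.1, 56.4, 92.6 and 35.8, and the untreated 2D libraries 49.97, 16.4, 34.6 and 50.8. The ranges overlapped in every comparison, and the groups had 120, 254, 230 and 166 reads in this order.

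In the scaffold KDR fell with MPP, to 27.2 ± 16.3 against 70.5 ± 29.5 in untreated 3D (limma, log2 -1.40, SE 0.41, adjusted p = 0.0111). On the dish it averaged 57.1 ± 11.6 with MPP and 37.9 ± 16.2 without, a change that was not called (limma, log2 0.68, adjusted p = 0.215). These MPP effects differed between 3D and 2D (limma, log2 -2.08, SE 0.58, adjusted p = 0.0172). Under MPP, 3D was below 2D (limma, log2 -1.18, adjusted p = 0.0267), but leaving out any 1 of 5 libraries ended that call, at adjusted p of 0.0515 to 0.0985. These were MPP-treated 2D replicates 1, 2 and 4 and MPP-treated 3D replicates 2 and 3. Without toxin, 3D stood 0.89 above 2D (limma, adjusted p = 0.0819), which became a call without untreated 3D replicate 4 (1.17, adjusted p = 0.0289).

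Per kilobase, FLT1 stood at 8.78 ± 1.97 in MPP-treated 3D, 0.0569 ± 0.114 in MPP-treated 2D, 270.02 ± 41.9 in untreated 3D and 0 in untreated 2D. KDR stood at 4.50 ± 2.68, 9.44 ± 1.91, 11.6 ± 4.86 and 6.27 ± 2.67 in the same order. FLT4, the VEGFC receptor, averaged 32.6 ± 18.6, 25.9 ± 9.33, 30.6 ± 11.3 and 20.4 ± 5.92 normalised reads and was called in no comparison by limma (adjusted p = 0.318 to 0.989). FLT1 therefore made up 47.1% of the length-scaled receptor kinase mRNA in MPP-treated 3D, 0.388% in MPP-treated 2D, 94.1% in untreated 3D and 0% in untreated 2D. The MPP-treated 3D libraries ran from 35.5% to 61.1% (SD 12.9), and replicate 1 had 0.964 FLT1 reads per KDR read. With all annotated exons as the length, FLT1, KDR and FLT4 stood at 4.96, 4.15 and 3.69 per kilobase in MPP-treated 3D. KDR had the largest share in both 2D groups, 68.7% with MPP and 62.5% without. In the untreated scaffold KDR held 4.06%, although its own level there was the highest of the 4 groups.

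**Figure D2:**
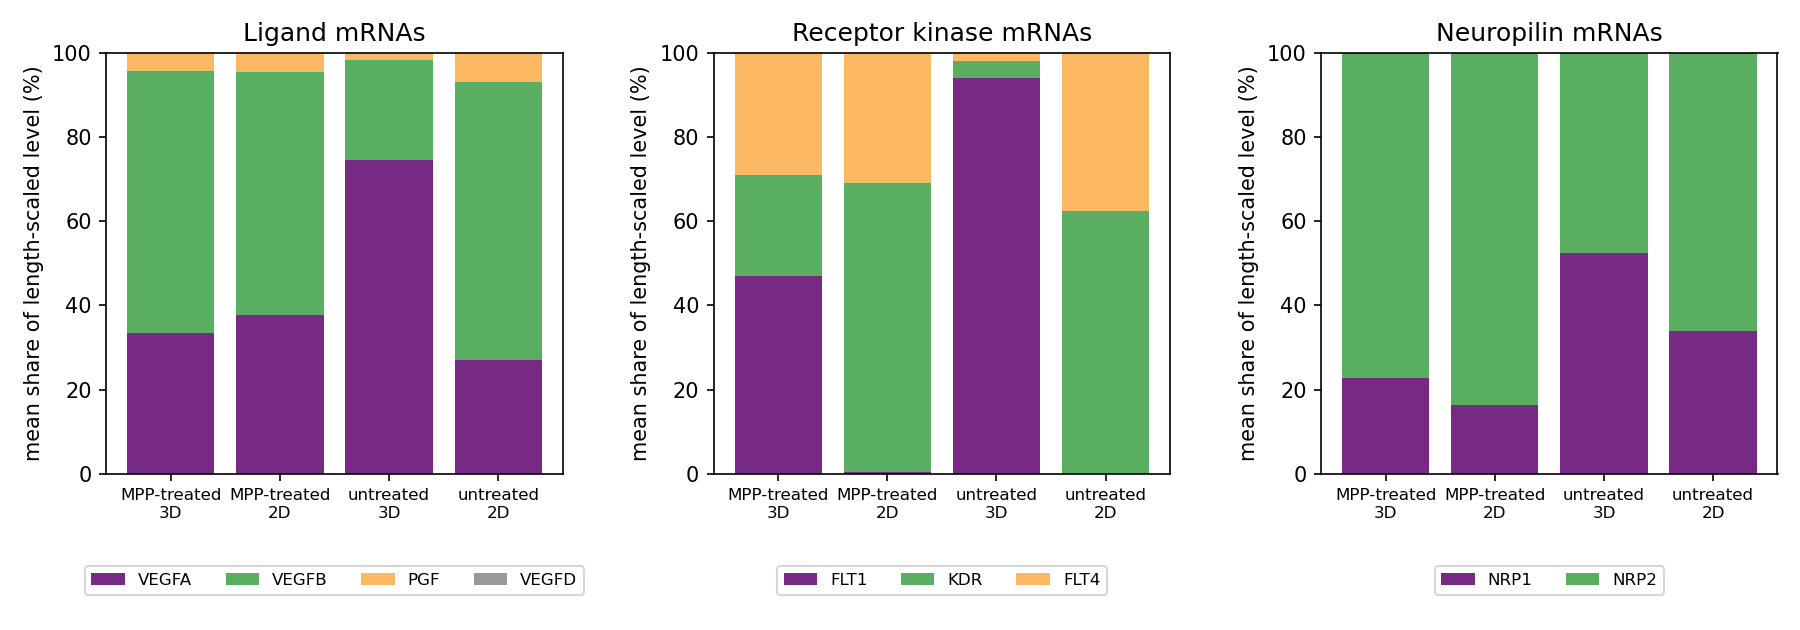
Mean share (%) of each mRNA in the length-scaled sum of the VEGF ligands, the receptor kinases and the neuropilins (stacked bars, vertical axis) in the 4 groups, with length taken as the longest coding transcript. FLT1 fills 94.1% of the receptor kinase bar in untreated 3D and 0% in untreated 2D, VEGFA fills 74.6% of the ligand bar in untreated 3D, and VEGFD is too low to be seen.

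NRP1 (Entrez gene 8829, chr10:33177492-33336262, minus strand), the co-receptor of VEGFA and semaphorin 3A, was higher in the scaffold and lower with MPP. The MPP-treated 3D libraries held 79.5, 58.0, 50.003 and 77.3. Those of MPP-treated 2D held 20.2, 8.98, 24.5 and 15.8. The untreated 3D libraries held 285, 268, 393 and 328, and the untreated 2D libraries 128, 98.7, 100.5 and 142. No 2 groups overlapped. Untreated 3D was highest, then untreated 2D, then MPP-treated 3D, with MPP-treated 2D lowest.

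NRP1 averaged 66.2 ± 14.5, 17.4 ± 6.62, 318 ± 55.8 and 117 ± 21.1 in MPP-treated 3D, MPP-treated 2D, untreated 3D and untreated 2D. It rose in 3D against 2D both without toxin (limma, log2 1.44, SE 0.27, adjusted p = 1.36e-04) and with MPP (1.93, adjusted p = 5.64e-06). It fell in 2D with MPP (limma, log2 -2.75, adjusted p = 6.36e-08) and in 3D (-2.26, adjusted p = 8.75e-07). For NRP1 the MPP effects differed by 0.49 between 3D and 2D (limma, SE 0.38, adjusted p = 0.433), so a difference between cultures was not detectable for this gene.

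NRP2 (Entrez gene 8828, chr2:205681990-205798133, plus strand), the co-receptor of VEGFC and semaphorin 3F, stood apart in MPP-treated 2D. The MPP-treated 3D libraries held 247, 219, 306 and 258. Those of MPP-treated 2D held 107, 121, 84.6 and 100.3. The untreated 3D libraries held 271, 351, 368 and 306, and the untreated 2D libraries 217, 252, 267 and 292. Only MPP-treated 2D lay clear of the other 3 groups, which overlapped their neighbours in the order of levels.

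NRP2 fell in 2D with MPP, to 103 ± 15.2 against 257 ± 31.4 in untreated 2D (limma, log2 -1.31, SE 0.16, adjusted p = 1.37e-06). In 3D it averaged 257 ± 36.1 with MPP and 324 ± 43.8 without, which was not called (limma, log2 -0.33, adjusted p = 0.111). The MPP effects on NRP2 differed between 3D and 2D (limma, log2 0.98, SE 0.22, adjusted p = 0.00385). Under MPP, NRP2 was higher in 3D than in 2D (limma, log2 1.31, adjusted p = 9.29e-07), and without toxin the change of 0.33 was not called (adjusted p = 0.0925). NRP1 and NRP2 share 561 and 147 exon bases with genes on the other strand, and VEGFA 188. The sources used here do not say whether the counting used strand.

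Per kilobase, NRP1 stood at 11.3 ± 2.46, 2.95 ± 1.13, 54.1 ± 9.48 and 19.9 ± 3.59 in MPP-treated 3D, MPP-treated 2D, untreated 3D and untreated 2D. NRP2 stood at 38.6 ± 5.43, 15.5 ± 2.29, 48.6 ± 6.57 and 38.6 ± 4.71 in the same order. NRP1 made up 22.7%, 16.3%, 52.6% and 34.0% of the neuropilin mRNA by length. The median number of NRP2 reads per NRP1 read was 3.55, 5.83, 0.944 and 2.31. Both neuropilins were thus near parity in the untreated scaffold alone.

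Set side by side, the comparisons gave the following calls among VEGFB, KDR, NRP1 and NRP2. In 3D against 2D without toxin 1 of 4 rose (NRP1) and 0 fell, where 46.1% of all tested genes were called in either direction. With MPP, 2 rose in 3D against 2D (NRP1 and NRP2) and 1 fell (KDR), against 38.9% of all genes. MPP in 2D left 0 that rose and 2 that fell (NRP1 and NRP2), against 34.5% of all genes. MPP in 3D left 0 that rose and 2 that fell (KDR and NRP1), against 34.6% of all genes. For the difference of the MPP effects 2 of 4 were called, NRP2 upward and KDR downward, against 15.3% of all genes. With 4 genes these shares cannot be set apart from the background. The comparisons with a group in common are not independent of each other. Without untreated 3D replicate 3 no call of these genes changed.

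**Figure D3:**
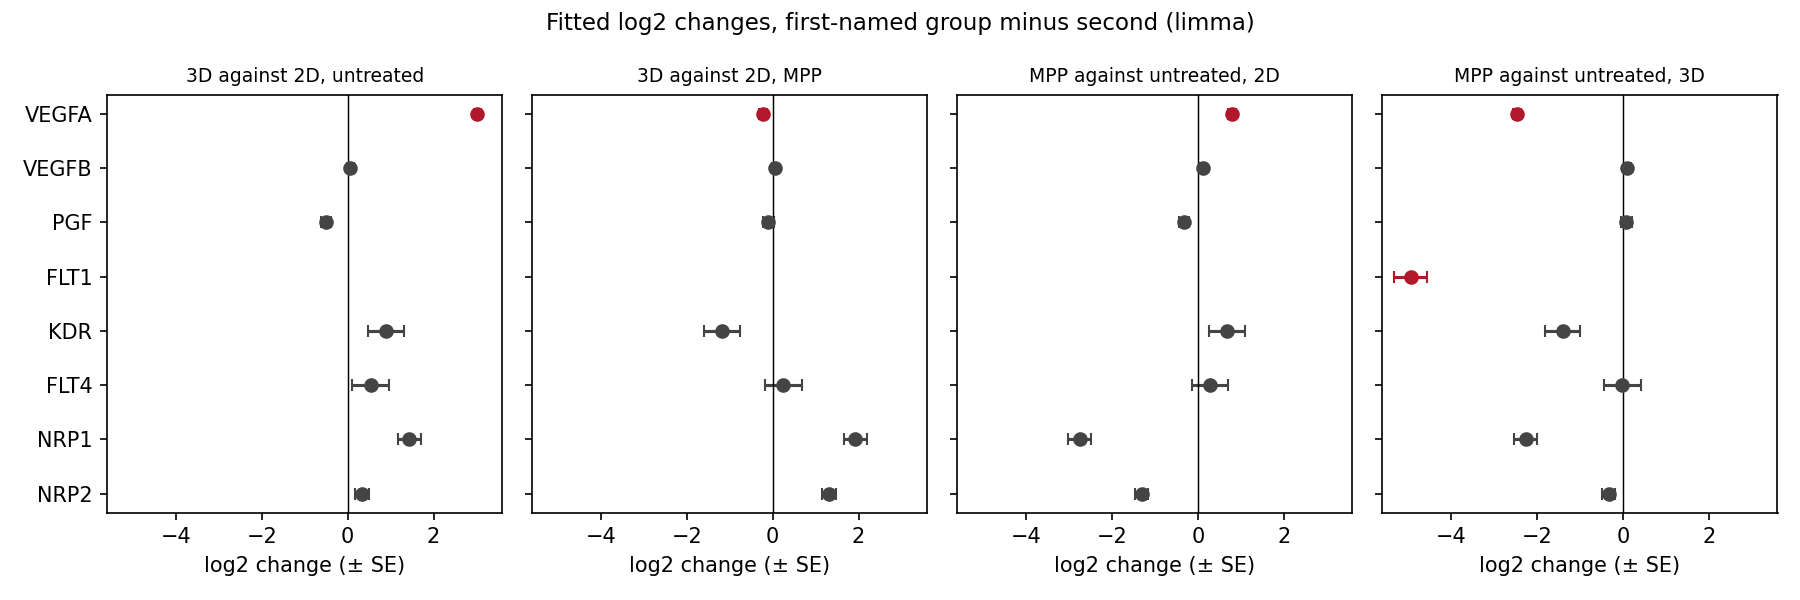
Log2 change ± SE from limma (horizontal axis, first-named group minus second) of the members and of PGF and FLT4 in 4 comparisons. Red marks VEGFA and FLT1, which carry no test, and FLT1 is drawn only where both groups had more than 2 reads. VEGFA is at 3.02 and -2.46 in the outer panels, and NRP1 lies right of 0 for 3D against 2D and left of 0 for MPP.

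Most hypoxia targets other than VEGFA were higher in the untreated scaffold, as VEGFA was. Of 15 such genes 13 rose and 0 fell in untreated 3D against 2D (median log2 1.34, against 0.010 over all genes tested), and 8 rose and 0 fell under MPP (median 0.26, against 0.0088). Carbonic anhydrase CA12 averaged 2018 ± 359 in untreated 3D and 64.2 ± 21.5 in untreated 2D (limma, log2 5.00, adjusted p = 8.75e-14). The peptide hormone ADM averaged 960.1 ± 199 and 112 ± 25.3 in the same groups (limma, log2 3.09, adjusted p = 1.16e-10). Under MPP these were again the genes that changed most, with 355 ± 36.0 in 3D and 12.3 ± 3.68 in 2D for CA12 and 357 ± 87.1 in 3D and 93.6 ± 28.1 in 2D for ADM.

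With MPP in 3D, 0 of the 15 hypoxia targets rose and 12 fell (median log2 -1.12, against 0.0033 over all genes). The collagen hydroxylase P4HA1 fell to 1654 ± 202 with MPP, against 5871 ± 1304 in untreated 3D (limma, log2 -1.81, adjusted p = 4.92e-11), and CA12 by 2.49 on the log2 scale. On the dish 3 rose and 6 fell with MPP (median -0.23, against 0.020), and 3 rose and 3 fell with equal library totals. The repressor BHLHE40 rose to 1837 ± 77.0 with MPP, against 761 ± 63.4 in untreated 2D (limma, log2 1.27, adjusted p = 3.01e-09), whereas CA12 fell by 2.27. For the difference of the MPP effects 0 were higher and 11 lower (median -1.11, against -0.019), with BHLHE40 at -2.36 and NDRG1, a stress-response gene, at -1.80. VEGFA, at 0.79 in 2D and -2.46 in 3D, lay on the same sides of 0 as BHLHE40, NDRG1 and the glucose transporter SLC2A1. These were at 1.27, 0.66 and 0.23 in 2D and at -1.08, -1.13 and -1.12 in 3D, and each change was called by limma. The relation of VEGFA to the hypoxia targets was not tested. The calls covered 86.7% of the list for 3D against 2D untreated, 53.3% under MPP, 60.0% with MPP in 2D and 80.0% in 3D. They covered 73.3% for the difference. All genes had 46.1%, 38.9%, 34.5%, 34.6% and 15.3% in this order. Without untreated 3D replicate 3 the counts of this list were the same in all 5 comparisons, and under MPP 1 in place of 0 fell without untreated 2D replicate 2 or 4 or untreated 3D replicate 2 or 4.

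Genes of the ATF4 arm of the stress response went up with MPP in both cultures. Of 8 genes 7 rose and 0 fell in 2D (median log2 1.51) and 7 rose and 0 fell in 3D (median 0.75). DDIT3, the pro-death factor CHOP, averaged 2505 ± 340 in MPP-treated 2D and 435 ± 35.8 in untreated 2D (limma, log2 2.52, adjusted p = 3.14e-13). In the scaffold DDIT3 averaged 5576 ± 909 with MPP and 1555 ± 177 without (limma, log2 1.83, adjusted p = 4.27e-11). CHAC1, which degrades glutathione, rose by 2.40 in 2D, and asparagine synthetase ASNS by 1.68 in 3D. In 3D against 2D, 7 rose without toxin (median 1.21) and 6 with MPP (0.53), with 0 falling in either. CHAC1 rose by 2.93 and DDIT3 by 1.83 without toxin, and by 1.14 and 1.15 with MPP. The difference of the MPP effects was called higher for 1 gene and lower for 5 (median -0.68), among them CHAC1 (-1.79) and ATF3 (-1.18). Without MPP-treated 2D replicate 3 or untreated 2D replicate 2, 0 in place of 1 were called higher. Without untreated 3D replicate 3, 6 rose in untreated 3D. The called share was 87.5% for 3D against 2D untreated, 75.0% under MPP, 87.5% with MPP in 2D, 87.5% in 3D and 75.0% for the difference. All genes had 46.1%, 38.9%, 34.5%, 34.6% and 15.3% in this order. VEGFA changed with MPP by 0.79 on the dish and by -2.46 in the scaffold, and its relation to the ATF4 genes was not tested.

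**Figure D4:**
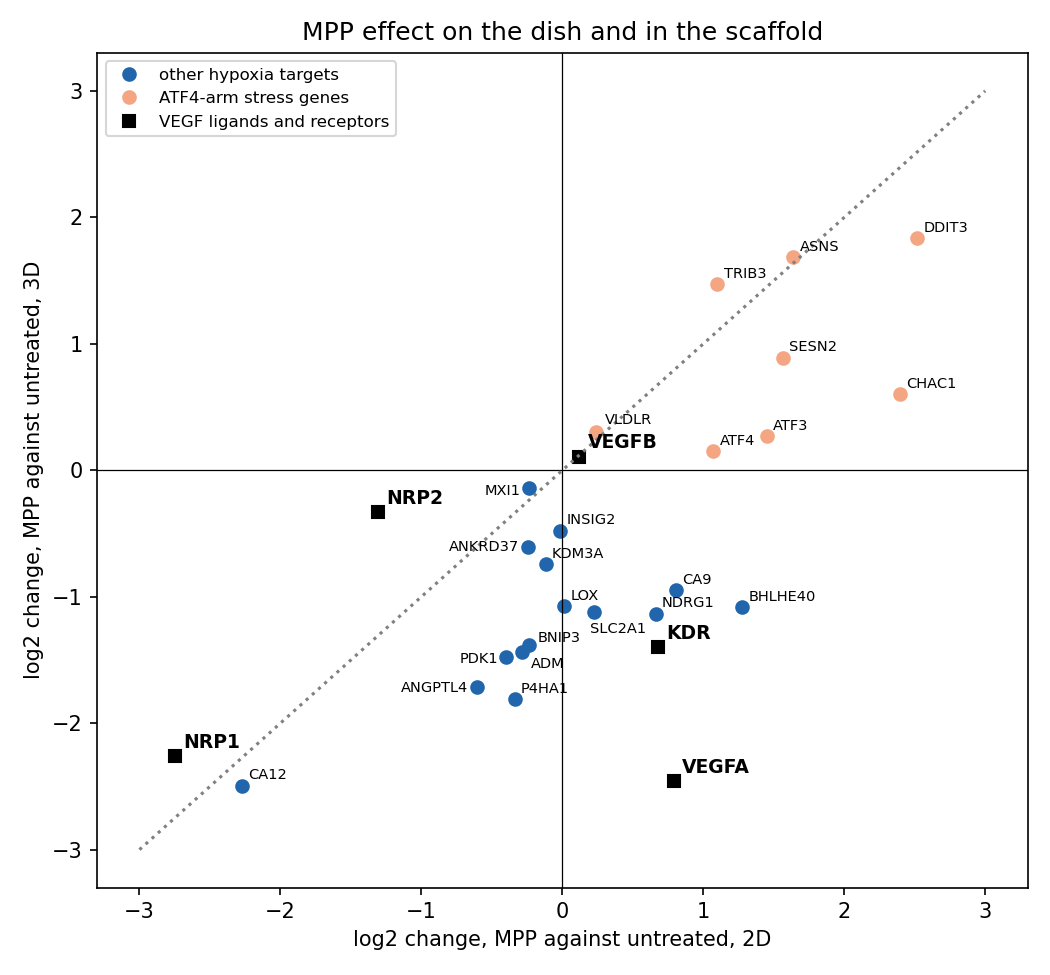
Log2 change with MPP in 2D (horizontal axis) and in 3D (vertical axis) of 5 members (squares), 15 other hypoxia targets and 8 ATF4-arm stress genes (circles), with the dotted line where both are equal; the 2 comparisons share no library. VEGFA, at 0.79 and -2.46, and KDR, at 0.68 and -1.40, lie in the lower right quadrant with BHLHE40, NDRG1, CA9, SLC2A1 and, next to the axis, LOX, and the stress genes lie above 0 on both axes.

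Of 9 oxygen-sensing genes tested, 4 rose and 1 fell in untreated 3D against 2D (median log2 0.15), 4 rose and 2 fell under MPP (0.18), 3 rose and 5 fell in 2D with MPP (-0.18) and 2 rose and 4 fell with MPP in 3D (-0.12). EPAS1, which encodes HIF-2 alpha, averaged 20686 ± 4006 in MPP-treated 3D, 3236 ± 57.5 in MPP-treated 2D, 25004 ± 1397 in untreated 3D and 5531 ± 237 in untreated 2D. It rose in 3D without toxin (limma, log2 2.18, adjusted p = 2.10e-14) and with MPP (2.66, adjusted p = 1.70e-15). HIF1A, which encodes HIF-1 alpha, rose with MPP in 2D to 16141 ± 1206, against 8899 ± 422 in untreated 2D (limma, log2 0.86, adjusted p = 1.44e-06), and EPAS1 changed by -0.77. The oxygen-dependent hydroxylases EGLN1 and EGLN3 fell with MPP in 3D by 0.94 and 0.79, and EGLN3 rose by 0.48 in 3D against 2D under MPP. HIF3A rose by 0.83 in untreated 3D. The difference of the MPP effects was called for 1 gene upward and 2 downward, HIF3A (-0.59) and EGLN1 (-0.53). These small counts moved with single libraries. Without MPP-treated 2D replicate 1 or MPP-treated 3D replicate 4, 2 in place of 4 rose under MPP. In that comparison 8 single omissions gave 1 in place of 2 that fell. Without untreated 3D replicate 3, 2 fell in untreated 3D. For the difference, leaving out most single libraries gave 1 downward. With equal library totals 3 fell with MPP in 2D. The called share was 55.6% for 3D against 2D untreated, 66.7% under MPP, 88.9% with MPP in 2D, 66.7% in 3D and 33.3% for the difference. All genes had 46.1%, 38.9%, 34.5%, 34.6% and 15.3% in this order.

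Of 16 partners of the neuropilins 2 rose and 10 fell in untreated 3D against 2D (median log2 -0.28), and 2 rose and 11 fell under MPP (-0.54), while NRP1 rose in both. PLXNA4, the plexin that transmits semaphorin 3A signals, averaged 1027 ± 173 in untreated 3D and 6474 ± 802 in untreated 2D (limma, log2 -2.66, adjusted p = 1.09e-12). The secreted guidance cue SEMA3C averaged 2990 ± 421 and 12838 ± 593 in the same groups (limma, log2 -2.11, adjusted p = 2.04e-15). In 3D against 2D under MPP, the changes of SEMA3A and SEMA3D were -2.65 and -2.50. MPP left 4 up and 5 down in 2D (median -0.072) and 2 up and 7 down in 3D (-0.23). With equal library totals these were 5 and 4 in 2D (median 0.032) and 4 and 6 in 3D. Leaving out MPP-treated 3D replicate 2 or untreated 3D replicate 2 also gave 4 up in 3D. SEMA3B rose with MPP in both, by 1.29 in 2D and 0.92 in 3D, while PLXNA1 fell by 0.66 in 2D and SEMA3D by 1.14 in 3D. The difference of the MPP effects was called for 0 upward and 2 downward, SEMA3A (-0.76) and PLXNA3 (-0.54), with 1 to 4 downward over the alternatives. Leaving out MPP-treated 2D replicate 4, MPP-treated 3D replicate 1 or 2, untreated 2D replicate 3 or untreated 3D replicate 2 or 4 gave 1 in place of 0 upward. The list's called share was 75.0% for 3D against 2D untreated, 81.2% under MPP and 56.2% with MPP in either culture. All genes had 46.1%, 38.9%, 34.5% in 2D and 34.6% in 3D. For the difference the share was 12.5%, near the 15.3% of all genes.

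Of 26 intracellular genes of VEGF receptor signalling tested out of 28, 3 rose and 9 fell in untreated 3D against 2D (median log2 -0.082), 2 rose and 8 fell under MPP (-0.14), 3 rose and 1 fell in 2D with MPP (0.053) and 6 rose and 5 fell with MPP in 3D (0.060). The called share was 46.2% for 3D against 2D untreated and 38.5% under MPP, beside 46.1% and 38.9% of all genes, so these counts are at the background. It was 15.4% with MPP in 2D and 42.3% with MPP in 3D, beside 34.5% and 34.6%. With equal library totals 10 rose with MPP in 2D, and without MPP-treated 2D replicate 4 or untreated 2D replicate 3 only 1 did. Under MPP, 1 in place of 2 rose in 3D against 2D without MPP-treated 2D replicate 1, 2 or 3 or MPP-treated 3D replicate 3. In 3D against 2D without toxin, the kinase SRC changed by -1.05 and the transcription factor NFATC2 by -1.82. Under MPP, NFATC2 changed by -1.41 and the kinase PRKCA by -1.02. MAPKAPK2 and PRKCA rose with MPP in 2D by 0.42 and 0.31. In 3D, SPHK1, which makes sphingosine phosphate, rose by 0.59 and the kinase PRKCB fell by 1.08. The difference of the MPP effects was called upward for SRC (0.51) and downward for MAP2K1 (-0.35), 7.69% of the list beside 15.3% of all genes. The downward call was lost with TMM scaling and under 8 single omissions, of MPP-treated 2D replicate 2, 3 or 4, MPP-treated 3D replicate 3, untreated 2D replicate 1 or 2 and untreated 3D replicate 2 or 4. Without untreated 3D replicate 3 or 4, 2 were called upward.

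Of 14 genes tested out of 16 that process VEGF ligands or hold them in the matrix, 2 rose and 8 fell in untreated 3D against 2D (median log2 -0.31), 1 rose and 9 fell under MPP (-0.36), 8 rose and 2 fell in 2D with MPP (0.22) and 5 rose and 1 fell with MPP in 3D (0.10). The called share was 71.4% in each of the first 3 comparisons, beside 46.1%, 38.9% and 34.5% of all genes. It was 42.9% with MPP in 3D, beside 34.6% of all genes there. ADAMTS3, the protease that activates VEGFC, averaged 157 ± 52.2 in untreated 3D and 354 ± 20.4 in untreated 2D (limma, log2 -1.22, adjusted p = 3.56e-05). PLAU, urokinase, fell in 3D by 0.95 without toxin and by 0.70 under MPP, and rose with MPP by 0.95 in 2D and 1.20 in 3D. Of the heparan sulfate carriers, SDC2 rose by 0.98 in 3D against 2D under MPP, SDC4 by 0.88 with MPP in 2D and SDC1 by 0.61 with MPP in 3D. The difference of the MPP effects was called for 1 upward and 3 downward, with SDC4 at -0.51 and GPC1 at -0.46. That was 28.6% of the list, beside 15.3% of all genes. The upward call was lost without MPP-treated 2D replicate 1 or 3, MPP-treated 3D replicate 2 or 4, untreated 2D replicate 1 or 4 or untreated 3D replicate 1 or 2, and without MPP-treated 2D replicate 3 or MPP-treated 3D replicate 3 only 1 stayed downward. Without untreated 2D replicate 2 or 3, 5 in place of 8 rose with MPP in 2D, and 1 in place of 2 fell there with equal library totals and without MPP-treated 2D replicate 4 or untreated 2D replicate 1 or 3. Without untreated 3D replicate 3, 1 rose in untreated 3D, 2 fell with MPP in 3D and 2 were called upward for the difference. Omitting untreated 2D replicate 2 or untreated 3D replicate 4 also left 1 that rose in untreated 3D, and omitting untreated 3D replicate 2 left 2 that fell with MPP in 3D.

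For each member the 3 genes of most similar pattern are named, by Pearson's r of log2(value + 1) over the 16 libraries. Genes with a mean of at least 50 were compared, 13398 in all. These values are a description, since the libraries share their 4 groups and size factors. VEGFA was closest to NOL3 (r = 0.979), a repressor of apoptosis, PDE4C (0.973), a cAMP phosphodiesterase, and ESPN (0.967), an actin bundler. NOL3 averaged 2220 in MPP-treated 3D, 2453 in MPP-treated 2D, 5756 in untreated 3D and 1734 in untreated 2D. FLT1 was closest to the transcription factor SP6 (0.993), the corepressor CBFA2T3 (0.990) and the transmembrane collagen COL17A1 (0.987). CBFA2T3 averaged 89.2, 1.21, 993 and 0.393 in the same order.

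NRP1 was closest to MAGEA6 (0.976), TXNIP (0.969) and TSPYL5 (0.954). TXNIP, which binds thioredoxin and limits glucose uptake, averaged 7243, 1261, 29838 and 8754 in MPP-treated 3D, MPP-treated 2D, untreated 3D and untreated 2D. MAGEA6 has near-identical copies that can share its reads. NRP2 was closest to ZNF551 (0.955), MLEC (0.954) and the corepressor TLE4 (0.942). The matches of VEGFB, with PDGFA (0.840), CEP83-DT (0.797) and ISL2 (0.797), and of KDR, with KLHL9 (0.785), MCAM (0.761) and MAGEL2 (0.754), were weaker. With Spearman's rho, 1 of the 3 genes was shared for VEGFA, VEGFB, FLT1 and KDR, and 0 for NRP1 and NRP2.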

How the data were processed

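RNA of 16 libraries was measured, 4 in each group, with groups and replicate numbers from the sample titles. The authors deposited a signal, namely reads per gene scaled by 1 size factor per library, with DESeq2 among their tools. The submitters' processing notes name CASAVA 1.8.2, FastQC and STAR, then featureCounts, DESeq2 and the build GRCh38.p13. Not given in the sources used here: settings, annotation and strandedness. All values were whole multiples of 1 step per library within 0.01 reads (100.0%), so whole reads were recovered. Their totals were 24589435 to 46359070 per library. The table holds genes with at least 11 reads over the libraries. In 24 replicate pairs the chi-square over genes was at least 6.43 per degree of freedom, so no pair was alike within sampling noise.

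For the main test, log2(value + 1) was fitted with limma 3.58.1 (trend option, R 4.3.3) over all 16 libraries at once. A gene entered if at least 4 libraries reached 10, which left 16984 genes. P-values were Benjamini-Hochberg adjusted over all genes tested, with calls under 0.05. The choice of limma was kept after reads were recovered, and edgeR 4.0.16 and DESeq2 1.42.0 on the recovered reads were alternatives. The code was tested on simulated data. The other alternatives were equal library totals, TMM scaling, pseudocounts of 0.5 and 5, no filter, a minimum mean of 50, only the groups compared, a replicate block and leaving out each library.

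The members and the gene lists were chosen with earlier results of these data known. Named genes are all members, PGF, VEGFD and FLT4, the 3 genes most similar to each member, and per list and comparison the 2 called genes of largest change with a mean of 50 or more. BHLHE40, NDRG1, SLC2A1, CA9 and LOX beside VEGFA and the 3 defining endothelial genes were chosen after their values were seen. VWF, ENG and EGFL7 are also given in comparisons where the rule for lists did not pick them. Lengths came from GENCODE v29 (GRCh38), which may not be the annotation used for counting. Promoters came from RefSeq (GRCh38.p14).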

Additional observations from a re-analysis of the deposited data

Results flagged for a closer look

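VEGFA had opposite MPP effects in the 2 cultures, with a difference of -3.25 on the log2 scale between 3D and 2D. All 4 MPP-treated 2D libraries lay above all untreated 2D libraries and all 4 MPP-treated 3D libraries below all untreated 3D libraries, and this difference was not tested. For KDR the difference of the MPP effects was -2.08 (limma, adjusted p = 0.0172), and for NRP2 it was 0.98 (limma, adjusted p = 0.00385).

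Single libraries stood far from the other 3 of their group in 7 of 36 groups looked at. The rule flags about 1 in 20 for normally spread values, which the low counts of FLT1 in 2D and of VEGFD are not. With 3 libraries at 0 a flag is certain, and with all at 0 it is impossible. The 7 is thus not set against 1 in 20. The highest VEGFA library of untreated 3D held 46888, and the lowest VEGFB library of MPP-treated 2D held 4390. One MPP-treated 2D library held 1.62 FLT1 against 0 in the others. For PGF the lowest MPP-treated 3D library held 397 and the highest untreated 3D library 531. For VEGFD, which rests on few reads, the highest library held 9.26 in MPP-treated 3D and 14.0 in untreated 3D.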

How the results depend on the processing

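Over 26 settings, 919 values of the members and of PGF and FLT4 were recomputed. Of these 880 kept direction and call, 19 had another call and 20 changed sign, all 20 uncalled, at adjusted p of 0.713 or more. They were VEGFB's difference of MPP effects (1.1e-05 with TMM scaling, -0.079 to 0.028 over single omissions), PGF and FLT4 for 3D against 2D with MPP (-0.16 to 0.0090 and -0.071 to 0.50) and FLT4 with MPP in 3D (0.082 with equal totals, 0.0021 with a pseudocount of 5, 0.087 with edgeR and with DESeq2, -0.33 to 0.25). The 129 recomputed counts of called genes stayed within 1.5 times. Leaving out 1 library gave 7017 to 7989 called genes for 3D against 2D untreated, 5683 to 6969 for 3D against 2D with MPP, 4771 to 6293 for MPP in 2D, 5247 to 5858 for MPP in 3D and 2142 to 2912 for the difference. Same-numbered libraries were not treated as paired in the main fit. Their deviations had correlations of -0.115 to 0.0896, with 0 of 24 pairs over 0.1. Such values cannot show whether the libraries were prepared in pairs, and the labels do not say. A replicate block gave 7634, 6451, 5675, 5706 and 2436 called genes and changed no call of a member. With equal library totals 70.3% of the calls with MPP in 2D were upward, against 51.1% with the deposited size factors, and 66.0% against 49.0% in 3D. With all annotated exons as the length, chosen after seeing the data, VEGFA per VEGFB was 0.147 in MPP-treated 3D, 0.179 in MPP-treated 2D, 0.891 in untreated 3D and 0.113 in untreated 2D. PGF's difference of MPP effects was called without MPP-treated 3D replicate 1 (limma, 0.51, adjusted p = 0.0453). KDR, at 120 to 254 reads a group, and FLT4 dropped out under a mean of 50 or more.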

Other observations

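Of 28 other angiogenic factors and receptors tested out of 30, 7 rose and 14 fell in untreated 3D against 2D (median log2 -0.30), 5 rose and 17 fell under MPP (-0.36), 6 rose and 6 fell in 2D with MPP (0.017) and 3 rose and 7 fell in 3D with MPP (-0.074). The called share was 75.0%, 78.6%, 42.9% and 35.7% in this order, beside 46.1%, 38.9%, 34.5% and 34.6% of all genes. Without untreated 3D replicate 3, 5 rose with MPP in 3D and 1 was called upward for the difference of the MPP effects; with equal library totals 6 rose with MPP in 3D, and without untreated 3D replicate 2, 4 were called downward for the difference. PDGFB, which recruits pericytes, stood at 299 ± 10.3 in untreated 3D and 17.3 ± 2.14 in untreated 2D (limma, log2 4.04, adjusted p = 7.48e-12). It also rose with MPP in 2D, by 1.41. The chemokine CXCL12 fell by 2.63 in untreated 3D. APLNR, the apelin receptor, averaged 63.3 ± 10.2 in MPP-treated 3D and 562 ± 34.6 in MPP-treated 2D (limma, log2 -3.14, adjusted p = 3.02e-08) and rose with MPP in 2D by 1.53. FGF1 fell by 2.65 in 3D against 2D under MPP. With MPP in 3D, the apelin gene APLN fell by 1.36 and CXCR4, the CXCL12 receptor, by 0.98. The difference of the MPP effects was called for 0 upward and 2 downward, PDGFB (-1.87) and PDGFRA (-0.55). That was 7.14% of the list, below the 15.3% of all genes.

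Among 5 proteins that bind VEGFA mRNA, 2 rose and 2 fell in untreated 3D against 2D and 1 rose and 3 fell under MPP. MPP left 2 up and 1 down in 2D and 0 up and 1 down in 3D. These counts are unstable: without untreated 3D replicate 3, 0 rose in untreated 3D while MPP in 3D left 1 up and 2 down, and leaving out most other single libraries gave 1 in place of 2 that rose. ZFP36, which speeds decay of AU-rich mRNAs, rose with MPP in 2D to 451 ± 48.0, against 258 ± 40.7 in untreated 2D (limma, log2 0.81, adjusted p = 0.00180), and its MPP effects differed between cultures by -1.04 (adjusted p = 0.00792). In untreated 3D ZFP36L1 rose by 0.60 and ZFP36 by 0.46. Under MPP, HNRNPL fell by 0.40 and ZFP36 by 0.58 in 3D against 2D. ZFP36L1 rose by 0.52 with MPP in 2D, and ELAVL1, which stabilises such mRNAs, fell by 0.18 with MPP in 3D. Of these 5 genes 80.0% were called for 3D against 2D untreated, 80.0% under MPP, 60.0% with MPP in 2D and 20.0% in 3D. All genes had 46.1%, 38.9%, 34.5% and 34.6% in this order.

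The mural cell and fibroblast list summed to 89320 to 100566 in MPP-treated 3D, 158319 to 189384 in MPP-treated 2D, 222662 to 317653 in untreated 3D and 189201 to 211654 in untreated 2D, most of it RGS5. Of its 12 genes 3 rose and 6 fell in untreated 3D against 2D, 2 rose and 7 fell under MPP, 3 rose and 2 fell in 2D with MPP and 4 rose and 4 fell with MPP in 3D. The sympathoadrenal list summed to 256761 to 316631, 446392 to 472033, 297605 to 337367 and 552403 to 597883 in the same order. Of its 13 genes tested 3 rose and 9 fell, 3 rose and 10 fell, 4 rose and 4 fell, and 4 rose and 6 fell in the comparisons as just listed. Of 7 tested endothelial markers 2 rose and 1 fell, 1 rose and 1 fell, 3 rose and 2 fell, and 1 rose and 1 fell. The 2 called downward with MPP in 2D became 1 without MPP-treated 2D replicate 3 or untreated 2D replicate 1 or 4. With MPP in 3D the 1 that rose became 0 under 12 single omissions and 2 with equal library totals, and the 1 that fell became 2 without MPP-treated 2D replicate 1, MPP-treated 3D replicate 1 or untreated 3D replicate 3. The upward calls with MPP in 2D were VWF, ENG (0.51) and EGFL7 (0.26), while ESAM changed by -1.23. The called shares in the 4 comparisons, in the order above, were 75.0%, 75.0%, 41.7% and 66.7% for the mural cell and fibroblast list. They were 92.3%, 100%, 61.5% and 76.9% for the sympathoadrenal list and 42.9%, 28.6%, 71.4% and 28.6% for the endothelial list. All genes had 46.1%, 38.9%, 34.5% and 34.6%, so within these 4 comparisons the endothelial list was above that share only with MPP in 2D. For the difference of the MPP effects, 42.9% of the endothelial list was called, beside 15.3% of all genes. The mural cell and fibroblast list had 33.3% there and the sympathoadrenal list 38.5%. The part of these lists in the results of the VEGF family was not tested.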
